A study of Mus musculus with 2 samples.

Results

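The 10 inflammasome and interleukin-1 family genes *Casp1*, *Casp4*, *Nlrp3*, *Aim2*, *Pycard*, *Gsdmd*, *Il1a*, *Il1b*, *Il1rn* and *Il18* were followed through 13 gates of tumor-infiltrating immune cells (TIIs). They were selected on measured values: earlier results of the same data had shown the CPM of the caspases higher with creatine, and the list was then taken by name from the 31053 genes of the count matrices. Their ratios between conditions are therefore descriptions, and no test is attached to them. Both libraries held CD45.2+ TIIs sorted from B16-OVA tumors, a mouse melanoma line that carries ovalbumin, grown under the skin of B6 mice, which the study's methods give as adult males. Control mice received PBS, and creatine-treated mice received 10.5 mg of creatine a day into the peritoneum. In each group 4 tumors harvested on day 14 were combined before sorting, and 10000 cells were loaded, so each condition is 1 library without replicates. These figures follow the labels and the sequencing methods, and other passages of the study's text give another harvest day and another number of mice. The protocol entry of the control library describes the creatine injection, while its title and treatment label name an untreated PBS group. It was taken as the control, and every direction rests on this.

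An inflammasome is a protein platform on which caspase-1 becomes active. Sensors such as NLRP3, which responds to membrane and ion disturbance, and AIM2, which binds DNA in the cytosol, recruit caspase-1 through the adaptor ASC, the product of *Pycard*. Active caspase-1 cuts the precursors of IL-1β and IL-18 and opens gasdermin D (*Gsdmd*), which forms pores in the cell membrane. The product of mouse *Casp4*, also called caspase-11, binds lipopolysaccharide in the cytosol and cuts gasdermin D without a sensor of the NLR family. *Il1b* and *Nlrp3* are textbook targets of NF-κB, whereas *Casp4*, *Casp1* and *Aim2* are known to respond to interferons. *Il1rn* encodes the antagonist that blocks the IL-1 receptor. The counts measure mRNA, and they carry no information on cleavage or release of any of these proteins.

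*Casp1* (chr9:5298517-5307265) and *Casp4* (chr9:5308828-5336783) lie on the plus strand of GRCm38, and 1562 bases separate them. *Il1a* (chr2:129299610-129309972) and *Il1b* (chr2:129364570-129371139) lie on the minus strand with 54597 bases between them, and *Il18* (chr9:50554827-50581840) is on the plus strand. The gene annotation is GENCODE M21. None of the 50-base windows in the last 500 bases of the *Casp1*, *Casp4*, *Il1b* and *Il18* transcripts occurred in a transcript of another gene, so these counts can be told apart from those of relatives. *Il1b*, *Il1a*, *Il18*, *Pycard* and *Aim2* overlap annotated genes on the other strand, and the sources used here do not state whether counting used strand. The bases just before the annotated start are shown for both caspases, which moved together, and for *Il1b* and *Il18*. The products of these cytokine genes are cut by caspase-1, and the genes did not follow the caspases in most gates. The bases shown come from RefSeq (GRCm38.p6), lie at chr9:5298267-5298516, chr9:5308599-5308827, chr2:129371140-129371389 (minus strand) and chr9:50554450-50554699, and are written 5′ to 3′ with matches to a searched motif in capitals.
Casp1: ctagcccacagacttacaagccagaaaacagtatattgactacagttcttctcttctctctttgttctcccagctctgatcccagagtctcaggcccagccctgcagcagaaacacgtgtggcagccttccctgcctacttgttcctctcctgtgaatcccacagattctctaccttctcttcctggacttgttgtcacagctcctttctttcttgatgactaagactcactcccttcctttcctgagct
Casp4: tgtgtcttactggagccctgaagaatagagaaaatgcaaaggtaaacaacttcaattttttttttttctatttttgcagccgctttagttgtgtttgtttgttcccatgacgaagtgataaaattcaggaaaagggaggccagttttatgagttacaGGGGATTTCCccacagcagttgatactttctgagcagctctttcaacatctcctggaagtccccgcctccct
Il1b: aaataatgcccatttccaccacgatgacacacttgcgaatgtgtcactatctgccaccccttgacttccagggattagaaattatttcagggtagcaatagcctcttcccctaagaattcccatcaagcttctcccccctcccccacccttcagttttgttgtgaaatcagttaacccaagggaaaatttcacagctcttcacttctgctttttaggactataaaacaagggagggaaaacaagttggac
Il18: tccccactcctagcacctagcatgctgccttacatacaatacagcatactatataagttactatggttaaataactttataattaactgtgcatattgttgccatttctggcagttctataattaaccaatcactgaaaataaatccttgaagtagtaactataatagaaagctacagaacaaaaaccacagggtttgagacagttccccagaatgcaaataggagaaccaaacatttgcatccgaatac

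A form of the NF-κB site, searched on both strands, was found in the *Casp4* window, where the capitals stand. Its position, 93 to 84 bases upstream, was counted on the window before it was cut at the annotated start. In the bases shown, the match therefore lies nearer to the annotated start than this. This form of the site occurs in 1.41% of 32851 promoter windows of the same source. Neither the interferon-gamma activated site TTCNNNGAA (7.02% of windows) nor a form of the interferon-stimulated response element (2.98%) was found in the window of a member. Promoter entries were found for 9 of the 10 members, all but *Gsdmd*, and one of the *Il1rn* starts held the only other NF-κB match. A match of letters is a description of the sequence, not evidence of binding.

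In each gate, UMIs (unique molecular identifiers, 1 per captured mRNA) were summed over the cells of a library and divided by the UMI total of those cells, and scaled to CPM, the UMIs of a gene per 1000000 UMIs of the gate, so that gates of unlike depth can be compared. Gates were drawn on marker genes that are not members. Macrophages were cells with at least 32 UMIs of *C1qa*, *C1qb* and *C1qc* per 10000. The gates held 781 control and 286 creatine macrophages, 193 and 372 classical monocytes (*Ly6c2* high), 155 and 377 nonclassical monocytes (*Ace*, *Adgre4* or *Treml4*), and 47 and 22 neutrophils (*S100a8* and *S100a9* high). There were 58 and 24 cDC1, 137 and 95 cDC2, 38 and 11 *Ccr7*+ DCs, and 35 and 18 pDCs. Lymphocyte gates held 2684 and 2173 CD8 T cells, 315 and 193 Tregs, 165 and 207 other CD4 T cells, 637 and 1104 NK cells, and 28 and 44 B cells. Each gate had at least 5 of its own markers in at least 25% of the cells, except 3 T cell gates. The Treg gate had 3 of 3, and the lists of the CD8 and CD4 T cell gates hold 2 markers each beside the shared T cell markers, of which 1 reached that share in control CD4 T cells. The cell filter kept 7241 of 7649 control cells (median 7688 UMIs) and 6229 of 6503 creatine cells (median 8475 UMIs), and 30 barcodes occurred in both libraries.

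A gene was counted as higher or lower with creatine when its CPM ratio was at least 1.5 in that direction, the 95% interval of the ratio did not hold 1, and both libraries together had at least 25 UMIs. Rose and fell are used in this sense. Intervals are exact Poisson intervals for levels and exact conditional binomial intervals for ratios, and they cover counting error only: differences between mice, tumors and library preparations are not in them. UMIs are treated as independent, so the clustering of a gene's UMIs in few cells is not covered either. Pooled sums cannot separate more transcript per cell from more cells that carry it.

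The caspases that start the pathway rose in every gate deep enough to be counted. *Casp1* rose in 9 of 9 such gates, with log2 ratios of 0.74 to 2.51, and *Casp4* in 10 of 10, with log2 ratios of 1.14 to 3.91. In macrophages, the *Casp1* level was 40.7 CPM (95% interval 37.4–44.3) in the control library and 125 CPM (117–134) with creatine, a log2 ratio of 1.62 (1.47–1.78). *Casp4* went from 28.1 CPM (25.3–31.1) to 92.0 CPM (85.0–99.5), a log2 ratio of 1.71 (1.52–1.90). The intervals of the libraries stand far apart for both genes. These were the only members past 1.5-fold among the 10 in macrophages, where 2.49% of 10978 genes rose and 4.23% fell. Ranked by ratio, *Casp4* was number 20 and *Casp1* number 25 of those genes.

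In classical monocytes, the inflammatory monocytes that enter tumors from blood, *Casp1* went from 44.3 CPM (35.0–55.4) to 163 CPM (150–176), a log2 ratio of 1.88 (1.53–2.24). *Casp4* went from 50.1 CPM (40.1–61.7) to 181 CPM (168–195), a log2 ratio of 1.86 (1.53–2.20). The third of the 9 members that rose there was *Aim2*, and none fell, against 7.01% and 6.55% of all genes. The nonclassical monocyte gate, whose cells also carried classical monocyte markers as given further on, showed the widest *Casp1* change of the countable gates. There *Casp1* was at 23.3 CPM (15.1–34.4) in the control library and 133 CPM (121–145) with creatine, a log2 ratio of 2.51 (1.93–3.15). *Casp4* went from 47.6 CPM (35.4–62.6) to 148 CPM (136–162), a log2 ratio of 1.64 (1.22–2.09). In this gate 5 of 9 members rose and none fell, against 4.39% and 4.24% of all genes, and the other members that rose were cytokine genes.

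**Figure D1:**
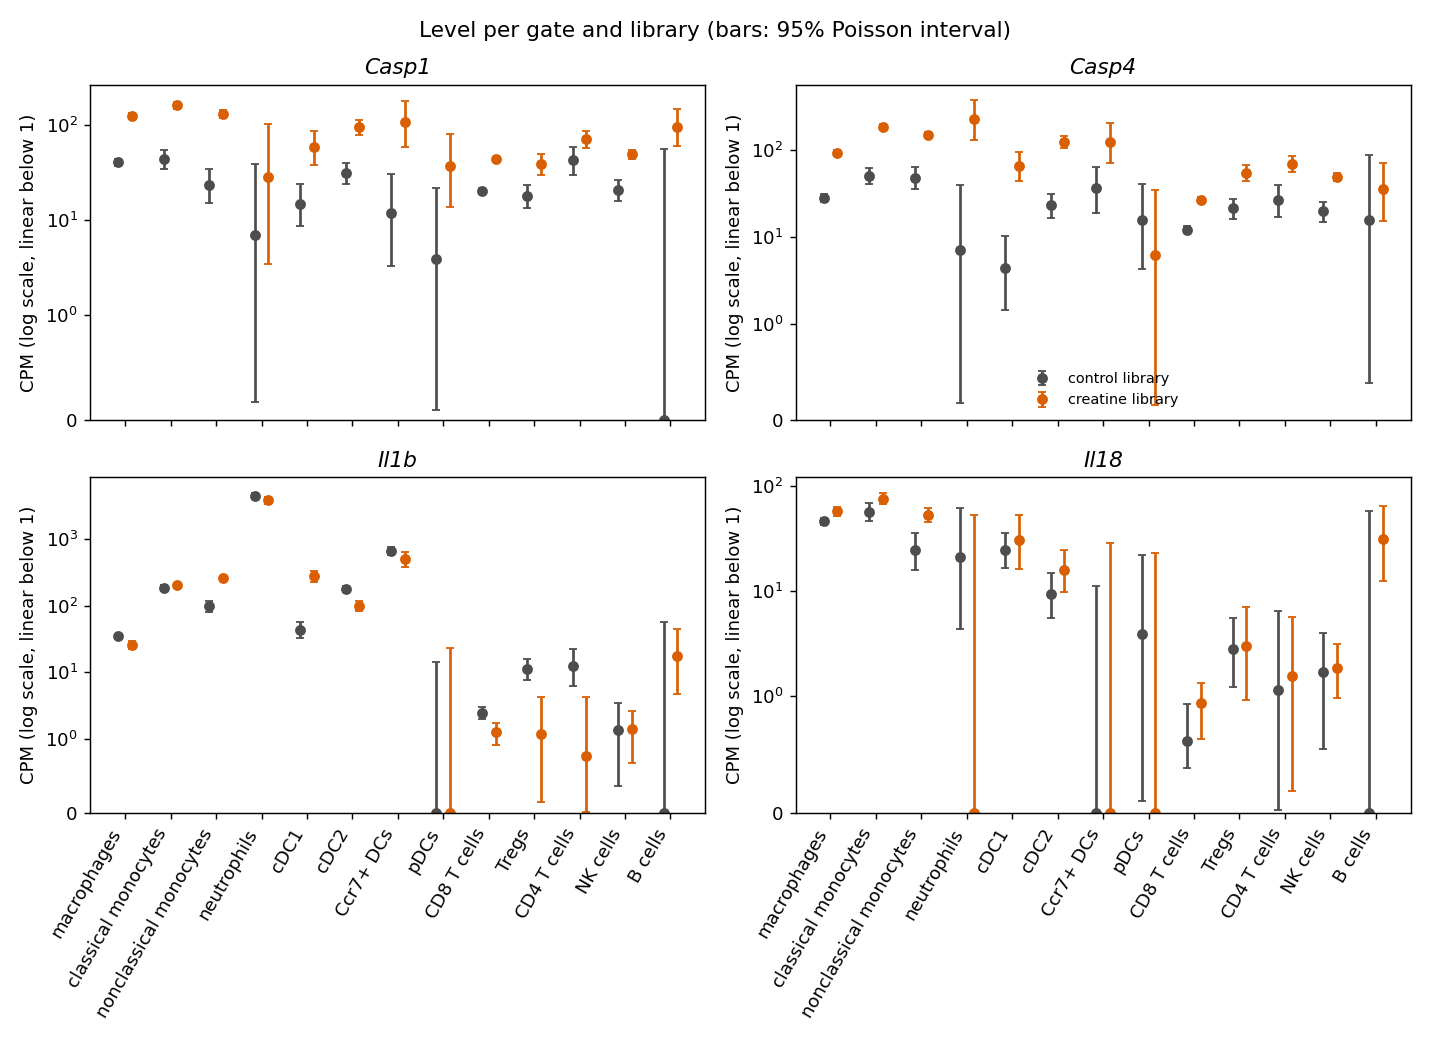
CPM of *Casp1*, *Casp4*, *Il1b* and *Il18* in each of the 13 gates (x axis) for the control library (grey) and the creatine library (orange), on a log axis that is linear below 1. Points are pooled levels of 1 library and bars 95% Poisson intervals; the creatine points of both caspases lie above the control points in every gate but the pDC gate of *Casp4*, which holds 4 and 1 UMIs, while *Il1b* crosses in both directions.

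Among dendritic cells, *Casp4* in cDC2, the subset that primes CD4 T cells, went from 22.9 CPM (16.6–30.7) to 123 CPM (105–144), a log2 ratio of 2.43 (1.94–2.95). *Casp1* there had 31.2 CPM (23.8–40.2) and 95.6 CPM (79.3–114), a log2 ratio of 1.61 (1.16–2.09). Both were clear of the control interval. Of 9 members in cDC2, 4 rose and 1 fell, against 8.25% and 5.60% of all genes. Monocyte transcripts moved in the same gate: the 8 classical monocyte markers went from 979 to 1816 CPM and *Lyz2* from 991 to 3321 CPM. In the 109 control and 53 creatine cDC2 under the *Lyz2* limit used for lymphocytes, the log2 ratios were 2.55 (1.95–3.18) for *Casp4*, 1.58 (1.04–2.13) for *Casp1* and -0.71 (-1.07 to -0.35) for *Il1b*, while *Il1rn* was left with 0 and 9 UMIs and *Nlrp3* at 0.32 (-0.71 to 1.30). In cDC1, the cross-presenting subset, *Casp4* rested on 5 control and 28 creatine UMIs, a log2 ratio of 3.91 (2.52–5.64), and *Casp1* on 17 and 25 UMIs, a log2 ratio of 1.98 (1.03–2.96). There 5 of 8 members rose and none fell (6.08% and 5.33% of all genes), which includes *Il1b* from a single cell and *Nlrp3* at 15 and 14 UMIs. There *Lyz2* went from 200 to 905 CPM, and in the 56 and 21 cDC1 under the same *Lyz2* limit the log2 ratios were 3.97 (2.56–5.71) for *Casp4* and 2.02 (1.04–3.02) for *Casp1*. Under this limit the classical monocyte markers were still higher with creatine, at 872 and 1441 CPM in cDC2 and 459 and 724 CPM in cDC1. The part of monocyte transcripts in the ratios of both gates was not tested. In *Ccr7*+ DCs, the migratory form, *Casp4* had 12 and 16 UMIs and a log2 ratio of 1.78 (0.60–2.99), the only one of 5 members that rose, and none fell (7.88% and 7.03% of all genes). In pDCs neither caspase reached 25 UMIs, neither of the 2 countable members rose or fell, and 4.70% and 3.51% of all genes did.

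Lymphocytes showed smaller ratios. In CD8 T cells, *Casp1* went from 20.6 CPM (19.1–22.1) to 44.4 CPM (42.1–46.7), a log2 ratio of 1.11 (0.98–1.24). *Casp4* went from 12.05 CPM (10.9–13.2) to 26.6 CPM (24.9–28.4), a log2 ratio of 1.14 (0.97–1.31). The summed level of 9 macrophage markers in the CD8 T cell gate went from 168 to 78.8 CPM, and that of 5 pan-myeloid markers from 418 to 293 CPM. The 8 classical monocyte markers summed to 569 and 555 CPM there, of which *Ly6c2* made 485 and 476 CPM. The 7 nonclassical markers summed to 253 and 286 CPM, of which *Spn* made 185 and 195 CPM. The part of myeloid transcripts in these caspase levels was not tested. In this gate 2 of 9 members rose and 2 fell, against 3.62% and 5.14% of all genes. In NK cells, *Casp1* had a log2 ratio of 1.27 (0.87–1.68) and *Casp4* of 1.29 (0.89–1.72), and they were the 2 of 5 members that rose, while none fell (2.71% and 3.05% of all genes). Tregs had log2 ratios of 1.11 (0.56–1.66) for *Casp1*, which was 0.57 and short of the limit with thinned cells, and of 1.36 (0.87–1.85) for *Casp4*, with 2 of 6 members higher and 1 lower against 5.26% and 3.65% of all genes. Other CD4 T cells had 0.74 (0.18–1.33) for *Casp1* and 1.38 (0.71–2.11) for *Casp4*, with 2 of 5 members higher and none lower against 3.82% and 3.91%. In B cells *Casp1* was not detected among the control UMIs, where 0 UMIs allow up to 46.3 CPM (3 UMIs), and had 22 UMIs (97.2 CPM) in the creatine library. *Casp1* thus could not be given a ratio there, and the only countable B cell member was *Pycard*, which rose (10.7% of all genes rose and 4.05% fell). The gate had no limit on *Lyz2*, and beside these values the 5 pan-myeloid markers in it went from 819 to 6080 CPM and *Lyz2* from 139 to 3208 CPM. With the 27 control and 38 creatine B cells under the *Lyz2* limit of the lymphocyte gates, *Casp1* had 0 and 7 UMIs and the *Pycard* log2 ratio was 0.89 (-0.17 to 2.12), so neither rose.

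In neutrophils both caspases were close to the limit of detection. *Casp4* had 1 UMI in the control library (7.04 CPM, interval 0.178–39.2) and 16 in the creatine library (228 CPM, 130–371), of which 7 came from 1 cell. *Casp1* had 1 and 2 UMIs. A single UMI is 7.04 CPM in the control neutrophils and 14.3 CPM in those of the creatine library, so smaller levels could not be seen.

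The share of cells with a transcript moved with the summed level. To set aside depth, each cell was thinned to 2000 UMIs and shallower cells were left out. A *Casp1* UMI was then found in 7.28% of 755 control macrophages and 19.4% of 278 creatine macrophages, against 40.8% and 76.6% before thinning. For *Casp4* the thinned shares were 5.56% and 14.4%. In classical monocytes they were 11.7% of 188 and 30.1% of 366 cells for *Casp4*. The largest share of *Casp1* or *Casp4* UMIs that 1 cell held in macrophages or either monocyte gate was 8%, so the sums do not rest on single cells.

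Of 5682 genes with a ratio in at least 9 gates, 3 rose in every gate that gave a ratio: *Casp1*, *Casp4* and *Gm47283*, an annotated gene model on chromosome Y. When genes that rose in at least 9 gates were counted, *Isg15* (11 of 13 gates) and *Samhd1* (9 of 13 gates) joined them. This count was made after the caspase ratios were known, and the gates share their libraries, so agreement across gates is not replication. The caspases were chosen because they were higher, so their place in this count is no support for them. The minimum of 9 is also the number of gates in which *Casp1* gave a ratio, and genes with a ratio in more gates had to rise in more. The next gene on the chromosome, *Casp12* (chr9:5345430-5373032), encodes another inflammatory-type caspase. It had 33 UMIs in control macrophages (2.47 CPM) and 58 in creatine macrophages (8.46 CPM), a log2 ratio of 1.78 (1.14–2.44). Over all kept cells its log2 ratio was 1.33 (0.92–1.75), beside 1.41 (1.33–1.48) for *Casp1* and 1.59 (1.51–1.67) for *Casp4*. Of the 6 genes within 1 megabase that could be counted over all kept cells, these 3 rose, against 5.10% of 14511 genes. *Casp1* and *Casp4* are among the 3 and had been chosen because they were higher. The count therefore lends no support to a change shared by neighbours. The other 3 were *Aasdhppt* (log2 ratio 0.06, -0.04 to 0.16), *Kbtbd3* (-0.01, -0.17 to 0.15) and *Msantd4* (0.24, 0.13 to 0.34). Over all kept cells the mix of cell types also differs between the libraries. The sources used here do not say how B6 mice were divided between the groups, and a difference between the 2 pools of mice cannot be told apart from creatine for any of these ratios.

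The sensors, the adaptor and the pore protein that act with the caspases changed little. *Pycard*, the adaptor ASC, was at 530 CPM (518–543) in control and 513 CPM (496–530) in creatine macrophages, a log2 ratio of -0.05 (-0.11 to 0.01). In classical monocytes its log2 ratio was -0.07 (-0.20 to 0.05), and over 12 countable gates it ran from -0.07 to 1.02. *Gsdmd* went from 50.4 CPM (46.7–54.3) to 65.0 CPM (59.1–71.4) in macrophages, a log2 ratio of 0.37 (0.19–0.54), and it rose or fell in none of 10 countable gates. The macrophage interval of *Gsdmd* lies above 0 but short of the 1.5-fold limit. *Nlrp3* was at 20.6 CPM (18.2–23.1) and 22.3 CPM (18.9–26.1) in macrophages, a log2 ratio of 0.12 (-0.18 to 0.41). In nonclassical monocytes its log2 ratio was -0.16 (-0.66 to 0.36), and in classical monocytes 0.31 (-0.12 to 0.76). *Nlrp3* rose in 2 of 7 countable gates, cDC1 and cDC2, and in both it missed the limit once the cell with the most UMIs of each library was set aside. *Aim2* went from 31.5 CPM (28.5–34.6) to 42.1 CPM (37.4–47.3) in macrophages, a log2 ratio of 0.42 (0.20–0.64), and from 34.5 CPM (26.3–44.4) to 53.7 CPM (46.5–61.6) in classical monocytes, a log2 ratio of 0.64 (0.21–1.08). *Aim2* rose in 2 of 10 gates, classical monocytes and cDC1. The classical monocyte value was short of the limit with equal weight per cell (0.50) and without the 5% of cells with the most UMIs (0.58), and with thinned cells it was 2.07.

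The cytokine genes did not follow the caspases in most gates. *Il1b* in macrophages was at 34.8 CPM (31.8–38.2) in the control library and 25.8 CPM (22.2–29.9) with creatine, a log2 ratio of -0.43 (-0.69 to -0.18). The counting intervals of both libraries do not overlap, and the creatine library is the lower one, though the sign was not the same at each *C1q* level, as given further on. In each library 1 cell held many of the UMIs, 79 of 466 in the control and 34 of 177 with creatine. Without these cells the log2 ratio was -0.47 (-0.76 to -0.19). The share of macrophages with an *Il1b* UMI was 11.8% without and 12.9% with creatine, where creatine macrophages were deeper. After thinning to 2000 UMIs it was 5.43% of 755 control and 3.60% of 278 creatine macrophages. In classical monocytes *Il1b* was at 184 CPM (164–205) and 204 CPM (190–219), a log2 ratio of 0.15 (-0.04 to 0.35), and the intervals overlap. Nonclassical monocytes went the other way. There *Il1b* went from 98.9 CPM (81.0–120) to 256 CPM (240–274), a log2 ratio of 1.37 (1.08–1.68), so it rose together with the caspases.

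Neutrophils held the highest *Il1b* level of all gates, 4489 CPM (4147–4851) without and 3809 CPM (3366–4294) with creatine, a log2 ratio of -0.24 (-0.45 to -0.03). All 47 control neutrophils and 21 of 22 creatine neutrophils had an *Il1b* UMI. None of 4 countable members rose and 1, *Il1a*, was counted as lower, where 11.4% and 13.9% of 1426 genes rose and fell. *Il1a* gave no log2 ratio there: its 28 control UMIs lay in 3 of 47 cells, and 0 were counted with creatine. The count of 1 thus rests on 3 cells. Another scaling (TMM) shifts all neutrophil log2 ratios by -0.11, and without the cell with the most *Il1b* UMIs in each library the ratio was -0.07 (-0.29 to 0.15). Other settings gave -0.58 (stricter gate), -0.52 (without the 5% of cells with the most UMIs), -0.46 (equal weight per cell) and -0.64 (thinned), so the size of the neutrophil difference depended on the setting.

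In cDC2, *Il1b* fell from 181 CPM (162–201) to 100 CPM (83.7–119), a log2 ratio of -0.85 (-1.15 to -0.55), and of -3.002 with the stricter gate. Among the gates with over 100 *Casp4* UMIs, this is the one in which *Casp4* rose most. In *Ccr7*+ DCs it was at 669 CPM (584–763) and 501 CPM (387–639), a log2 ratio of -0.42 (-0.84 to -0.01), but 46 of the 65 creatine UMIs came from 1 of 11 cells. Without the cell with the most UMIs in each library the ratio was -1.52 (-2.28 to -0.83). In cDC1 the log2 ratio of 2.66 (2.17–3.17) is 1 cell: 117 of 118 creatine UMIs were in it. Without such a cell in each library, 22 control UMIs and 1 creatine UMI were left.

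In lymphocytes, which are not known as a main source of *Il1b*, few cells held it. After thinning, an *Il1b* UMI was found in 0.152% of 2637 control and 0.231% of 2160 creatine CD8 T cells, and in 16.5% and 18.0% of classical monocytes. The CPM of *Il1b* in CD8 T cells was 2.46 (1.97–3.03) and 1.27 (0.915–1.72), a log2 ratio of -0.95 (-1.52 to -0.41). In CD8 T cells 1 control cell held 20 of the 88 UMIs. In Tregs 17 of 32 control UMIs came from 1 cell, and 2 UMIs were counted with creatine. Whether these UMIs come from the lymphocytes themselves was not tested.

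*Il18*, the second cytokine that caspase-1 cuts, moved less than the caspases. In macrophages it was at 45.8 CPM (42.3–49.6) and 56.9 CPM (51.4–62.8), a log2 ratio of 0.31 (0.13–0.50). In classical monocytes it was at 56.4 CPM (45.8–68.7) and 74.9 CPM (66.3–84.2), a log2 ratio of 0.41 (0.07–0.76). It rose in 1 of 6 countable gates, nonclassical monocytes, from 24.3 CPM (15.8–35.5) to 52.9 CPM (45.5–61.1), a log2 ratio of 1.12 (0.53–1.78). With the stricter gate that ratio was 0.36, short of the limit.

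*Il1rn*, whose product opposes IL-1, likewise rose in nonclassical monocytes only, among the 3 macrophage and monocyte gates. It was at 98.2 CPM (93.0–104) and 105 CPM (97.8–113) in macrophages, a log2 ratio of 0.10 (-0.03 to 0.23), and had a log2 ratio of -0.19 (-0.46 to 0.09) in classical monocytes. In nonclassical monocytes it rose from 16.8 CPM (9.95–26.5) to 42.3 CPM (35.8–49.7), a log2 ratio of 1.33 (0.62–2.13), which was 0.32 with thinned cells. It also rose in cDC2, from 9 to 22 UMIs, a log2 ratio of 1.89 (0.72–3.20), while *Il1b* fell there. *Il1a*, the IL-1 gene whose product is active without caspase-1, gave a ratio only in macrophages, at 5.91 CPM (4.68–7.36) and 8.31 CPM (6.30–10.8), a log2 ratio of 0.49 (-0.02 to 1.00). In neutrophils it had 28 UMIs in the control library, 16 of them in 1 cell, and 0 with creatine, which allows up to 42.8 CPM (3 UMIs).

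**Figure D2:**
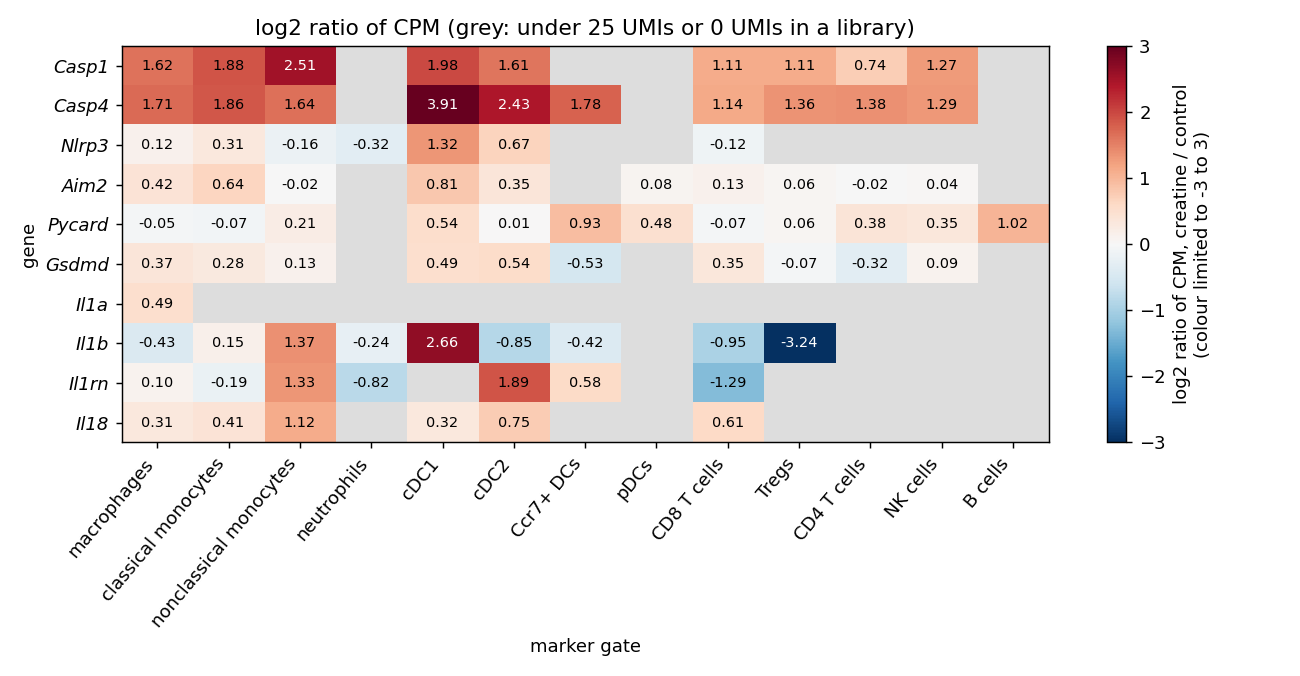
log2 ratio of CPM, creatine over control, of the 10 members (rows) in the 13 gates (columns), as colour and as printed value; grey cells had under 25 UMIs or 0 UMIs in a library. The *Casp1* and *Casp4* rows are positive throughout, from 0.74 to 3.91, while *Il1b* runs from -3.24 to 2.66, where the highest value comes from 1 cell.

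Whether the caspase rises were matched was read from the difference of 2 log2 ratios within a gate, which does not depend on how the libraries are scaled. In macrophages *Casp4* exceeded *Il1b* by 2.14 (1.83–2.46), *Il18* by 1.40 (1.13–1.67) and *Nlrp3* by 1.59 (1.24–1.94) on the log2 scale. In classical monocytes the same differences were 1.70 (1.32–2.09), 1.45 (0.96–1.93) and 1.54 (0.98–2.09). In nonclassical monocytes *Casp4* exceeded *Il1b* by 0.27 (-0.26 to 0.80) and *Il18* by 0.52 (-0.27 to 1.27), so neither interval leaves 0, while *Nlrp3* was exceeded by 1.81 (1.12–2.48). *Casp1* exceeded *Il1b* in that gate by 1.13 (0.47–1.84). Over all gates with both ratios, the difference of *Casp4* had an interval above 0 against *Nlrp3* in 6 of 6, *Pycard* in 9 of 10 and *Gsdmd* in 10 of 10. Against the cytokine genes, lymphocyte gates set aside, it was above 0 in 4 of 6 gates for *Il1b*, 4 of 5 for *Il18* and 2 of 5 for *Il1rn*. These counts follow largely from the choice of *Casp4*, which was already known to be higher. In macrophages 0.17%, in classical monocytes 0.46% and in nonclassical monocytes 0.61% of all genes had a higher ratio than *Casp4*. Most other genes would be exceeded as well, so the counts say little about the partners or the cytokine genes in particular.

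The composition of the gates moved as well, and its part in these ratios was not tested. In the classical monocyte gate the 9 macrophage markers summed to 4402 CPM without and 2522 CPM with creatine, the 8 classical monocyte markers to 6218 and 7225 CPM, and the 6 NK cell markers to 9.21 and 157 CPM. In the nonclassical gate the sums were closer, with 2503 and 2286 CPM for 7 nonclassical markers, 4751 and 4426 CPM for classical markers and 3733 and 3463 CPM for macrophage markers. The classical sum was thus the larger one in this gate. Single classical markers in it moved in opposite directions, with *Ly6c2* going from 482 to 896 CPM and *Chil3* from 2059 to 1228 CPM. Most of its macrophage sum was *Apoe*, at 3433 and 3290 CPM, so that sum hides the other macrophage markers. Of these only *Ms4a7* was higher with creatine (16.8 and 26.3 CPM), and *C1qb*, for one, went from 53.2 to 17.2 CPM. In macrophages the macrophage markers were at 20493 and 22890 CPM, and the 9 neutrophil markers at 102 and 56.7 CPM with *Ly6g* at 0 in both libraries. Of the macrophage markers, *Ccl8* went from 1995 to 3807 CPM. *C1qa*, *C1qb*, *C1qc*, *Ms4a7* and *Trem2* were also higher with creatine, and *Mrc1*, *Pf4* and *Apoe* were lower. Among classical markers in this gate, *Ly6c2* went from 156 to 323 CPM and *F13a1* from 197 to 61.8 CPM. Of the neutrophil markers, *S100a8* went from 25.6 to 4.52 CPM and *S100a9* from 26.5 to 0.292 CPM, and only *Csf3r* was higher with creatine (42.1 and 49.1 CPM). The median depth per macrophage was 15140 UMIs without and 22276.5 UMIs with creatine.

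*Lyz2*-high cells with at most 1 *Cd3* gene detected were also split by their *C1q* level into 6 bins, whose edges are multiples of the macrophage limit. Cells within a bin still differed between the libraries: *Ly6c2* was higher with creatine in each bin, with log2 ratios of 0.69 to 1.67. At 32 to 64 *C1q* UMIs per 10000 it went from 360 to 1144 CPM. The part of this difference in the ratios was not tested. *Casp1* and *Casp4* were higher with creatine in each bin, with log2 ratios of 1.56 to 1.93 for *Casp1* and 1.43 to 2.72 for *Casp4*. *Il1b* had a log2 ratio above 0 in 5 of the 6 bins, smaller than those of both caspases, and of these only the bin at 8 to 32 was past 1.5-fold. Its log2 ratio was 0.34 (0.22–0.47) in the lowest bin (under 2 *C1q* UMIs per 10000), 0.16 (-0.11 to 0.44) at 2 to 8, 0.17 (-0.21 to 0.55) at 32 to 64 and 0.50 (0.12–0.87) at 64 to 128. At 8 to 32 it was 1.40 (1.05–1.75), from 102 CPM (85.3–122) to 270 CPM (229–316), though 93 of the 156 creatine UMIs came from 1 of 55 cells. Only at 128 and over was it lower with creatine: *Il1b* was at 17.2 CPM (13.4–21.6) without and 2.04 CPM (0.883–4.03) with creatine, a log2 ratio of -3.07 (-4.33 to -2.01), with 72 UMIs in 11 of 218 cells, 29 of them in 1 cell, against 8 UMIs in 2 of 126 cells. The lower *Il1b* of the whole macrophage gate was thus not found in either *C1q* bin between 32 and 128. *Il18* in that bin was at 65.8 CPM (58.3–74.0) and 66.5 CPM (58.6–75.0), a log2 ratio of 0.01 (-0.24 to 0.26).

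**Figure D3:**
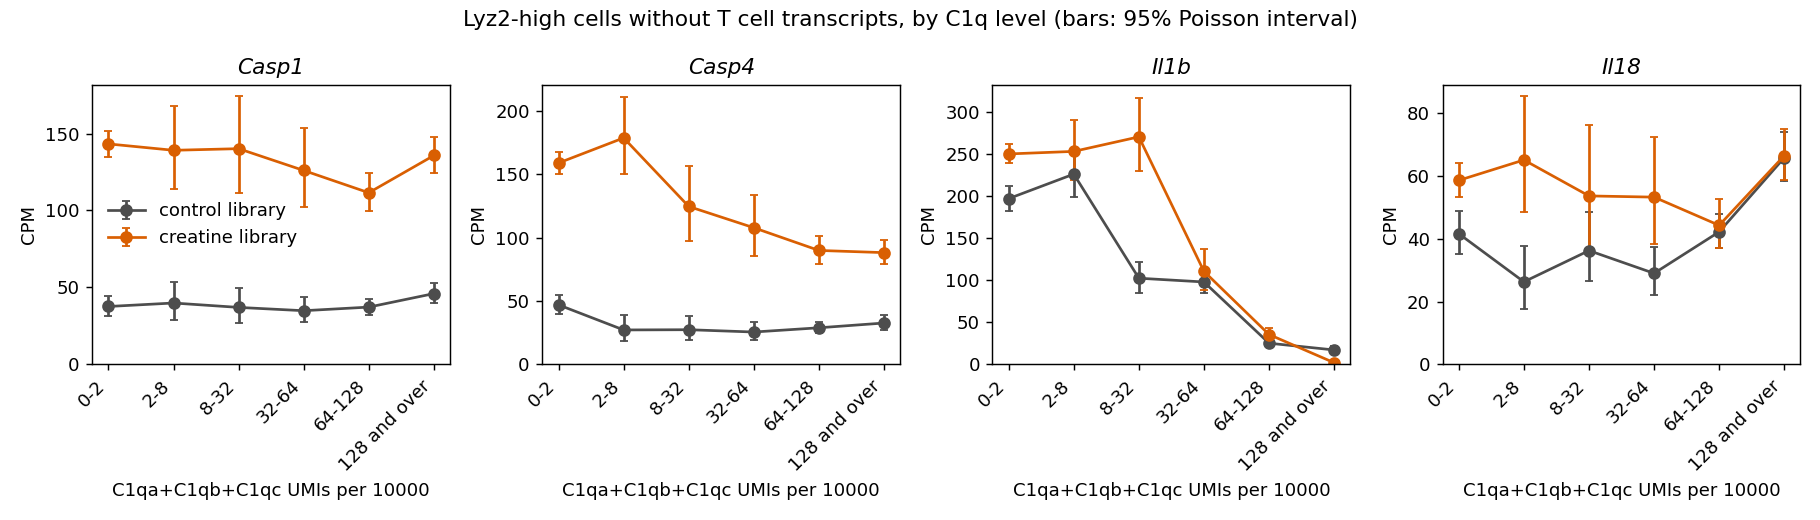
CPM of *Casp1*, *Casp4*, *Il1b* and *Il18* (y axes, linear from 0) in *Lyz2*-high cells split into 6 bins by summed *C1q* UMIs per 10000 (x axis), for the control (grey) and creatine (orange) library with 95% Poisson intervals. Both caspases run as separate lines in all bins, whereas *Il1b* stays above 100 CPM in both libraries up to 32 *C1q* UMIs per 10000 and ends at 17.2 and 2.04 CPM.

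The caspases rose both in cells with and in cells without an *Il1b* UMI. In macrophages without an *Il1b* UMI (689 control and 249 creatine cells) the *Casp1* log2 ratio was 1.62 (1.46–1.79), and in those with 1 or more (92 and 37 cells) it was 1.62 (1.13–2.12). For *Casp4* these were 1.80 (1.60–2.01) and 1.22 (0.76–1.70), in nonclassical monocytes 1.66 (1.14–2.21) and 1.41 (0.69–2.24) and in cDC2 2.82 (2.13–3.57) and 2.02 (1.28–2.80). In these 3 gates the *Casp4* ratio was the smaller one in cells with *Il1b*, a difference that was not tested. In classical monocytes the *Casp4* log2 ratios were 1.86 (1.48–2.26) without and 1.86 (1.25–2.53) with an *Il1b* UMI. *Il1b* itself was concentrated in few cells. The 5% of macrophages with the most *Il1b* UMIs held 85.8% of them without and 83.6% with creatine, against 33.0% and 23.0% for *Casp4* in its own top cells.

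The pattern over gates differed between *Casp4* and *Il1b* as well. Over 26 levels (13 gates in both libraries, each as log2 of CPM plus 1), the genes most like *Casp4* among 9858 compared were *Rhox8* (Pearson r = 0.83), *Irf1* (0.79), *Sft2d1* (0.79), *Dtx3l* (0.79) and *Rtp4* (0.79). *Irf1* encodes a transcription factor of the interferon response, and *Casp1* was number 36 with r = 0.63. Most like *Il1b* were *Mcemp1* (0.93), *Il15* (0.93), *Cask* (0.91), *Gm14548* (0.91) and *Zfp106* (0.90), with *Il1rn* number 42 at 0.82 and *Casp4* number 1271 at 0.40. These levels share libraries and depths, so the correlations only describe the levels.

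The decoy receptor of IL-1 was the partner that fell in most gates. *Il1r2* encodes a receptor that binds IL-1 without a signal. It went from 111 UMIs (8.30 CPM) to 13 UMIs (1.90 CPM) in macrophages, a log2 ratio of -2.13 (-3.08 to -1.30). In classical monocytes its log2 ratio was -2.36 (-3.34 to -1.46), in nonclassical monocytes -2.38 (-3.69 to -1.16), in neutrophils -1.02 (-1.88 to -0.24), in cDC2 -1.63 (-2.002 to -1.26) and in CD8 T cells -1.26 (-1.44 to -1.08). *Il18bp*, whose product binds IL-18 and blocks it, rose in macrophages from 90.9 to 203 CPM, a log2 ratio of 1.16 (1.04–1.27), and in cDC2 by a log2 ratio of 1.00 (0.45–1.55). Of the 20 receptors, adaptors and other ligands of the family, 13 could be counted in macrophages, of which 1 rose and 5 fell, with a median log2 ratio of -0.45 beside -0.02 over all genes. The others that fell were *Il1rap*, *Il1rl2*, *Il18r1* and *Sigirr*, each under 10 CPM in macrophages. In classical monocytes 1 of 11 rose (*Irak3*, log2 ratio 0.62) and 1 fell, and in nonclassical monocytes none of 11 rose and 1 fell. Of all genes, 2.49% rose and 4.23% fell in macrophages, 7.01% and 6.55% in classical and 4.39% and 4.24% in nonclassical monocytes. The counts in both monocyte gates are near these shares. The receptor chains of IL-18 were not past the limit in lymphocytes. In CD8 T cells *Il18r1* had a log2 ratio of -0.02 (-0.07 to 0.03) and *Il18rap* of -0.05 (-0.10 to 0.01), and in NK cells of -0.25 (-0.38 to -0.12) and -0.10 (-0.24 to 0.03).

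Among 23 other sensors and partners of inflammasomes, 2 of 21 countable genes rose in macrophages and none fell, with a median of 0.06 beside -0.02. They were *Casp12* and *Zbp1*, a sensor of Z-form nucleic acids, which went from 190 to 309 CPM, a log2 ratio of 0.70 (0.62–0.78). In classical monocytes 1 of 18 rose, *Mefv*, which encodes the sensor pyrin, from 54.1 to 88.0 CPM, a log2 ratio of 0.70 (0.37–1.05). In nonclassical monocytes 3 of 19 rose (*Nlrp1b*, *Mefv* and *Zbp1*) and 1 fell (*Txnip*, log2 ratio -0.59). Of all genes, 2.49% rose in macrophages, 7.01% in classical and 4.39% in nonclassical monocytes, and 4.23%, 6.55% and 4.24% fell. The 1 of 18 in classical monocytes is thus near the share of all genes. In macrophages *Casp8*, which encodes an initiator caspase of the death receptors, had a log2 ratio of -0.01 (-0.15 to 0.12).

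Interferon-inducible genes rose in numbers that differed between gates. Of 12 such genes, 10 rose in macrophages, 6 in classical monocytes, 12 in nonclassical monocytes, 11 in cDC2, 6 in CD8 T cells, 6 in Tregs, 3 in other CD4 T cells and 1 in NK cells, and none fell in these gates. In cDC1 9 of 11 rose, in B cells 3 of 5 and in neutrophils 1 of 3, with none lower. In pDCs 3 of 5 rose and 1 fell, and in *Ccr7*+ DCs 2 of 10 rose and 2 fell (median log2 ratio 0.04), while *Casp4* rose there. The median log2 ratio was 0.95 in macrophages, 0.60 in classical and 1.21 in nonclassical monocytes, beside medians over all genes of -0.02, 0.02 and -0.01. *Gbp5*, a guanylate-binding protein that takes part in inflammasome assembly, went from 47.6 to 146 CPM in macrophages, a log2 ratio of 1.61 (1.47–1.76), and *Irf1* had 0.99 (0.90–1.08) there. In NK cells the list median was 0.23, and *Isg15* alone rose, while both caspases rose. Over all genes, 2.49% rose and 4.23% fell in macrophages, 7.01% and 6.55% in classical and 4.39% and 4.24% in nonclassical monocytes. These shares were 8.25% and 5.60% in cDC2, 6.08% and 5.33% in cDC1 and 7.88% and 7.03% in *Ccr7*+ DCs. They were 4.70% and 3.51% in pDCs, 11.4% and 13.9% in neutrophils and 10.7% and 4.05% in B cells. CD8 T cells had 3.62% and 5.14%, Tregs 5.26% and 3.65%, other CD4 T cells 3.82% and 3.91% and NK cells 2.71% and 3.05%.

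NF-κB-driven early genes, the class to which *Il1b* and *Nlrp3* belong, did not move as 1 group over the gates. The list of 12 includes the member *Nlrp3*. In macrophages 2 of 10 countable genes rose and 2 fell, with a median of 0.16. *Tnf* went from 41.6 to 68.2 CPM, a log2 ratio of 0.71 (0.53–0.89), while the neutrophil-attracting chemokine *Cxcl2* went from 82.8 to 11.2 CPM, a log2 ratio of -2.88 (-3.23 to -2.55), and *Cxcl3* from 187 UMIs to 1. In neutrophils 6 of 8 fell and none rose, with a median of -1.90, and *Cxcl2* went from 11947 to 1912 CPM, a log2 ratio of -2.64 (-2.91 to -2.39). *Il1b* in those neutrophils was not past the limit. In nonclassical monocytes 2 of 9 rose, *Tnf* with a log2 ratio of 1.00 (0.33–1.74) and *Ccl4* with 2.03 (1.39–2.75), and *Ptgs2* fell. In cDC2 6 of 8 rose and 1 fell (*Ptgs2*). In cDC1 5 of 6 rose and none fell, with a median of 3.23. Both counts include *Nlrp3*, which missed the limit once the cell with the most UMIs of each library was set aside. In other CD4 T cells 4 of 6 rose and none fell, with a median of 0.70. Of 7 genes that answer tissue dissociation and stress, none rose in macrophages and 2 fell: *Hspa1a* had a log2 ratio of -1.67 (-1.93 to -1.42) and *Dusp1* of -0.62 (-0.78 to -0.46). In cDC2 4 of these 7 rose, in classical monocytes 2 rose, and the part of dissociation in the levels of *Il1b* was not tested. The shares of all genes that rose and fell were 2.49% and 4.23% in macrophages and 4.39% and 4.24% in nonclassical monocytes. They were 11.4% and 13.9% in neutrophils, 8.25% and 5.60% in cDC2 and 7.01% and 6.55% in classical monocytes. In cDC1 they were 6.08% and 5.33%, and in other CD4 T cells 3.82% and 3.91%.

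**Figure D4:**
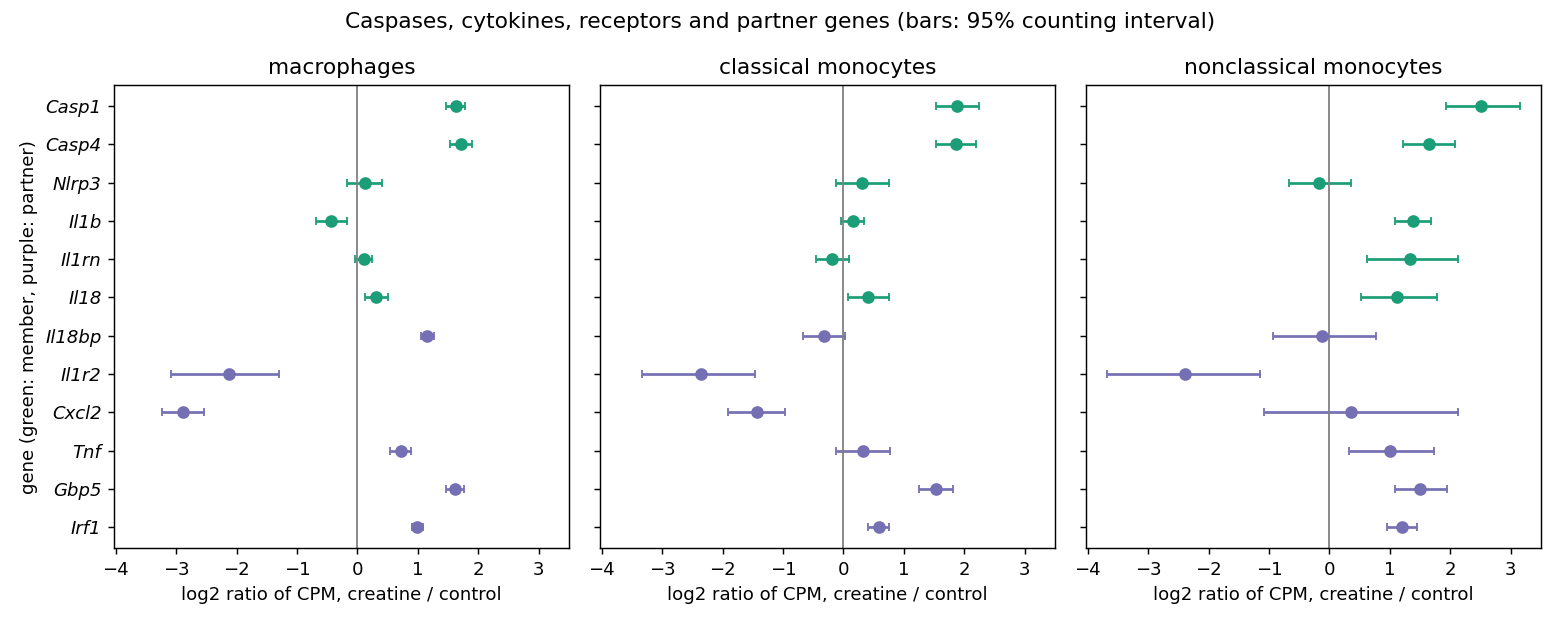
log2 ratio of CPM, creatine over control (x axis), of 6 members (green) and 6 partner genes (purple) in macrophages, classical monocytes and nonclassical monocytes; points are single ratios of 2 libraries and bars 95% counting intervals. *Casp1* and *Casp4* lie to the right of 0 in all 3 panels, *Il1b*, *Il1rn* and *Il18* reach 1.12 to 1.37 only in nonclassical monocytes among the 3, and *Il1r2* lies left of -2 in each.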

How the data were processed

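Single-cell RNA-seq of 1 control and 1 creatine library was analysed. Per the labels, the authors made the count matrices with Cell Ranger 3.0.2 on mm10, and the deposited values are raw UMI counts per gene and cell without normalization (unit: counts). The aggregated and integrated object of the study was not used here. Following the study's methods, cells under 300 UMIs, under 100 genes or over 25% mitochondrial UMIs were dropped. Gates used 98 markers of 19 classes, and their thresholds were set after the marker distributions had been seen. Macrophages had *C1q* of at least 32 UMIs per 10000, other myeloid gates under 16, monocytes *Lyz2* of at least 16, classical monocytes *Ly6c2* of at least 4, neutrophils *S100a8* plus *S100a9* of at least 64, and T and NK cell gates *Lyz2* and *C1q* under 8. The B cell gate had no *Lyz2* limit. Cells between the *C1q* limits (158 control and 51 creatine) were left out. Doublets were not called. In an alternative, the 5% of cells with the most UMIs in each gate were left out.

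UMIs were summed per gate and library to CPM. A design with 1 library per condition allows no test, so values carry 95% intervals for counting error (Poisson, Clopper-Pearson) and no p-value. A count of 0 was read as up to 3 UMIs. The members and the gene lists were chosen with earlier results of these data known. All 10 members are reported in each gate. From each partner list, genes past 1.5-fold were counted and up to 4 were named by size, with others (*Casp8*, *Il18r1*, *Il18rap*, *Isg15*, *Irf1*, *Gbp5*) named after their values were seen, as were the chromosomal neighbours and the genes higher in every gate. Likeness used genes with at least 500 UMIs. Upstream windows of 250 bases, shorter where cut at the first annotated base of a member, were searched on both strands for 3 motifs. Alternatives were a stricter gate, 2 other mitochondrial filters (no filter, or at most 10% with at least 500 genes), removal of the 5% of cells with the most UMIs, equal weight per cell, thinning to 2000 UMIs, CPM without mitochondrial and ribosomal protein genes, TMM factors (edgeR 4.0.16 in R 4.3.3) and, chosen after seeing the data, removal of the cell with the most UMIs of a gene in each library and, in cDC1, cDC2 and B cells, of cells with *Lyz2* of 8 or more. The rule was tested on counts simulated as independent Poisson draws from the gate sums, without clustering of UMIs in cells or differences between libraries. The shares that follow hold for such counts only. Of genes changed 2-fold, 88.3% of 94 were recovered in macrophages (10986 genes run) and 72.9% of 96 in nonclassical monocytes (8546 genes run), and 0.871% and 2.37% of unchanged genes were called. Python 3.11.15 with numpy 2.4.6, scipy 1.17.1, pandas 2.3.3 and matplotlib 3.10.9 was used.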

Additional observations from a re-analysis of the deposited data

Results flagged for a closer look

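For 3 genes, the log2 ratios of creatine over control lay on opposite sides of 0 in 2 cell types, each with a counting interval off 0. The difference between the cell types was not tested against replicates, since each condition is 1 library. *Il1b* had a log2 ratio of 1.37 (1.08–1.68) in nonclassical monocytes and of -0.24 (-0.45 to -0.03) in neutrophils, and the second value went to -0.07 without the cell with the most *Il1b* UMIs in each library. *Il1rn* had 1.33 (0.62–2.13) in nonclassical monocytes and -1.29 (-1.94 to -0.68) in CD8 T cells, where 0.265% of 2637 control and 0.278% of 2160 creatine cells held an *Il1rn* UMI after thinning, and whether these UMIs come from the CD8 T cells themselves was not tested. *Pycard* had 0.35 (0.24–0.46) in NK cells and -0.070 (-0.11 to -0.03) in CD8 T cells, from 299 to 380 CPM and from 243 to 232 CPM.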

How the results depend on the processing

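No paired analysis was possible because each condition is 1 library and the results come from no test. *Casp4* stayed positive in 91 of 91 and *Casp1* in 83 of 83 combinations of a gate and an alternative setting, and *Il1b* in nonclassical monocytes ran from 1.25 to 1.55. The *Casp1* log2 ratio in classical monocytes moved to 1.21 with thinned cells. *Il1b* moved to -0.17 in macrophages with equal weight per cell, to 0.46 in classical monocytes with the stricter gate and to -0.19 there with thinned cells. In neutrophils it was -0.58 with the stricter gate, -0.52 without the 5% of cells with the most UMIs, -0.46 with equal weight per cell and -0.64 with thinned cells. Ratios that held 0 in their counting interval also changed sign in several gates and are not listed in full. Among them, *Il1a* in macrophages went as low as -0.78 and *Aim2* in cDC2 as low as -0.96. Of the ratios with an interval off 0, those that changed sign were *Nlrp3* in cDC2 (-0.17 with the stricter gate, -0.042 thinned), *Pycard* in B cells (-0.18 with the stricter gate), *Aim2* (-0.059) and *Il1b* (0.61) in CD8 T cells thinned, *Gsdmd* in macrophages (-0.038) and cDC2 (-0.46) thinned, and *Il1b* in cDC1 (-2.98) without the cell with the most UMIs. In each case the cause was not tested, except that fewer UMIs are left after thinning and that 1 cell held nearly all cDC1 UMIs.

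Counts of genes past 1.5-fold, which were 737 in macrophages, 1191 in classical monocytes, 741 in nonclassical monocytes and 360 in neutrophils, moved with a minimum of 100 UMIs to 475, 790, 456 and 149. With thinned cells they were 610, 397 and 140 in the last 3 gates. In neutrophils they were 96 with the stricter gate, 215 without the 5% of cells with the most UMIs and 572 with no minimum. TMM scaling shifted all log2 ratios by -0.11 in neutrophils, -0.13 in pDCs and 0.21 in B cells, and CPM without mitochondrial and ribosomal protein genes by -0.10 in B cells. Depth limits the neutrophil, *Ccr7*+ DC, pDC and B cell gates most, where 1 UMI is 3 to 15.4 CPM.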
